A study of Homo sapiens with 10 samples.

Results

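Genes that span more than 200 kb of the genome from their annotated start to their annotated end, introns included, were followed in newly made and in total RNA of 22RV1, a widely used human prostate cancer cell line that grows without androgen. The members were the protein-coding genes whose span in the GENCODE v44 annotation (hg38) exceeds 200000 bases, and the rule used no measured value. They were 1489 of 31014 genes with a matched 3′ end interval and held 2795 of 57380 intervals, against 17759 shorter protein-coding genes with 25597 intervals. Their median span was 319.693 kb and the widest covered 2473.539 kb, with 322 over 500 kb and 71 over 1000 kb. Of the members, 131 had no read in any library and 347 had no read with a T>C conversion.

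The cells were left untreated (control) or exposed for 4 h to 20 μM SRPIN340, an inhibitor of SRPK1, to 50 μM Endovion (SCO-101), also used as an SRPK1 inhibitor, to THZ531, an inhibitor of CDK12 and CDK13, or to THZ531 together with Endovion, in 2 libraries per group. The THZ531 dose is 100 nM in the study's methods and 150 nM in the series' own text. All cells received 4-thiouridine for the last 10 min, so that RNA made in that time carries T>C conversions once the RNA is alkylated and sequenced. The libraries start at the poly(A) tail, so a transcript gives reads at its 3′ end whatever its length, and a gene is read only where its transcript has been completed and polyadenylated. T>C reads are called nascent RNA here, all reads total RNA. No source used here says that the 2 libraries of a group came from separate cultures, so p-values measure the spread between libraries, which may be technical. Fewer cells and less RNA per cell cannot be told apart in such libraries.

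Most of a long gene is intron, and the polymerase takes far longer to reach the last exon of such a gene than of a short one. On its way it passes many sites in introns that resemble poly(A) signals, and U1 snRNP and factors of elongation are known to keep them from being used. CDK12 phosphorylates the C-terminal domain of RNA polymerase II during elongation, and its loss is known to favour polyadenylation within introns. SRPK1 phosphorylates SR proteins, the splicing factors rich in arginine and serine.

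The sequences at 2 ends of the same gene show what the 3′ end reads of a long gene can stand for. Below are 30 bases of the transcript strand around the poly(A) signal hexamer closest to the end, with it in capitals (AATAAA, or otherwise ATTAAA). The stretches are of the first and the last covered end of 4 members described further on. They were read from hg38, and the hexamers lie 16 to 30 bases before the annotated end.
GPATCH2 first end, chr1:217608198-217608227, minus strand: tttttttttttcAATAAAatctctgacttg
GPATCH2 last end, chr1:217427001-217427030, minus strand: ttcactatgttgATTAAActtatcttttct
BICD1 first end, chr12:32108752-32108781, plus strand: tgtctaccaaaaAATAAAtgtactacctat
BICD1 last end, chr12:32383593-32383622, plus strand: ctttttccagtaAATAAActggttattttt
SLC10A7 first end, chr4:146513906-146513935, minus strand: ttattacatatgAATAAAcaaactatgatg
SLC10A7 last end, chr4:146253993-146254022, minus strand: aataattatatgATTAAAcaaagaatgttt
NFIB first end, chr9:14305769-14305798, minus strand: aatgtgggacttAATAAActgctatgagct
NFIB last end, chr9:14081853-14081882, minus strand: aactgtttaaacAATAAAatgagctatgct

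Each library held 19315353 to 30047601 reads on genes, and 1011586 to 1576065 of them with a conversion, or 5.04% to 5.70% of the reads. Members held 560472 to 902168 reads and 29306 to 47831 T>C reads per library. The 12 luminal prostate markers checked summed to 1642 to 2404 RPM (reads scaled to a fixed library size), highest in control cells and lowest with the combination, and the 13 markers of other cell types to 4.16 to 6.08, with CD3E, VWF and KRT5 at 0 in every library. The part of the falling luminal markers in the results below was not tested. Of the members, 687 (46.1%) had enough T>C reads to be tested in nascent RNA and 1054 (70.8%) enough reads in total RNA, against 49.7% and 66.6% of the shorter genes. A member that passed the count filter could do so through the group in which it was high.

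Tested members differed from shorter protein-coding genes in their build. Their median span was 289.811 kb against 31.296 kb and they had a median of 18 against 9 exons, but exons made up only 3.18% of the span of a typical member against 17.99% in shorter genes. They were also more thinly covered at the 3′ end, with a median of 24.5 T>C reads in control cells against 43, so a change of the same size was harder to detect in them. The labelled share of their reads in control cells was 5.52% at the median, against 5.09% in shorter genes. At the best-covered end, AATAAA lay within the last 50 bases in 487 of 687 members (70.9%) and in 5762 of 8824 shorter genes (65.3%), and AATAAA or ATTAAA in 603 (87.8%) and 7093 (80.4%), on the transcript strand. Over their whole length, the best-covered intervals of members were richer in T at the median (32.4% against 30.4%). The T content of the stretch that the reads cover was not measured.

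The span of the gene is not always that of the transcript that was read. For 519 of the 687 members tested in nascent RNA (75.5%), the transcript annotated to the best-covered end itself spanned over 200 kb, with a median of 246.607 kb over all 687. The others are wide in the annotation through a longer transcript. PGK1, the glycolytic phosphoglycerate kinase, spans 218.557 kb, but its best-covered end belonged to a transcript of 25.048 kb. Likewise MRPL33 and MGST1, which are described below, were read at the end of transcripts of 8.015 kb and 17.268 kb.

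As a group, members kept a nearly constant part of all newly made RNA. Their share of T>C reads was 2.92% and 2.87% in control cells, 3.12% and 3.14% with SRPIN340, 2.94% and 2.94% with Endovion, 2.84% and 2.88% with THZ531, and 2.93% and 2.90% with the combination. Both SRPIN340 libraries lay above all the others, and the THZ531 and the combination libraries overlapped the control range. Of all reads, members held 2.73% and 2.68% in control cells, 2.91% and 3.002% with SRPIN340, 2.88% and 2.88% with Endovion, 2.75% and 2.89% with THZ531, and 2.84% and 2.90% with the combination. Every treated library lay above both control libraries in this measure, by little in 1 THZ531 library. In each library, the 5 members with most T>C reads held 11.5% to 14.1% of the members' T>C reads. Without them both SRPIN340 libraries still lay above all the others, at 2.74% and 2.76%. The 5 members with most reads held 12.3% to 15.4% of the members' reads in total RNA. Without them 1 THZ531 library, at 2.326%, no longer lay above both control libraries, at 2.337% and 2.292%.

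**Figure D1:**
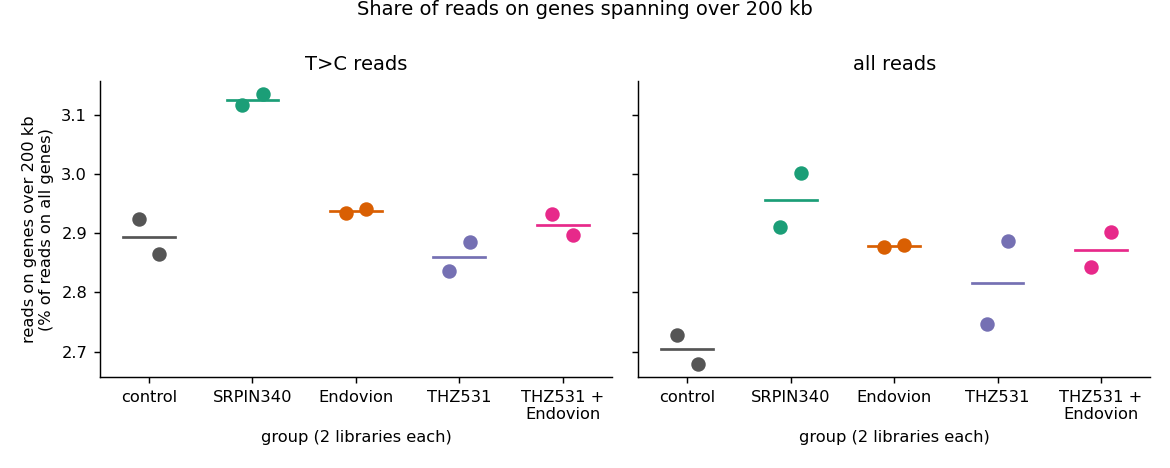
Percentage of T>C reads (left) and of all reads (right) on genes that lies on genes spanning over 200 kb, in each of the 10 libraries. Points are libraries and short lines group means, and the axis does not start at 0. The 2 SRPIN340 libraries (3.12% and 3.14%) lie above all others for T>C reads, while the THZ531 libraries (2.84% and 2.88%) overlap the control libraries (2.92% and 2.87%).

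The labelled share of the members' own reads, 6.10% and 6.02% in control cells, was lower in every treated library. It was 5.97% and 5.30% with SRPIN340, 5.16% and 5.28% with Endovion, 5.82% and 5.23% with THZ531, and 5.20% and 5.23% with the combination. The shares of shorter genes overlapped between groups, with 5.70% and 5.56% in the control libraries and 5.07% to 5.64% in those of the treatments. Over all genes the share was also lower in every treated library, by little in 1 THZ531 library. It was 5.695% and 5.634% in control cells and 5.044% to 5.632% with the treatments. Gene by gene, the labelled share was called changed in 2 of 687 members with SRPIN340, 3 with Endovion, 2 with THZ531 and 4 with the combination, where 0.161%, 0.442%, 0.342% and 1.02% of all tested genes were called. The members were MNAT1, whose share rose with SRPIN340, THZ531 and the combination, WDR72, whose share fell with every treatment, LIMCH1 and MRPS22, which fell with Endovion, and ABLIM1 and the cohesin subunit STAG2, which fell with the combination.

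In nascent RNA, the genes over 200 kb did not stand lower than shorter genes after CDK12 inhibition. A gene was called where the edgeR quasi-likelihood test with Benjamini-Hochberg adjustment over all 9945 genes gave an adjusted p under 0.05. With THZ531, 13 of 687 members rose and 18 fell, where 3.86% of all genes rose and 3.6% fell. Among shorter genes 4.03% rose and 3.67% fell. The median log2 fold change of members minus that of shorter genes was -0.00 (SD 0.02 from the spread between libraries), and 48.9% of members lay above 0. Leaving out 1 library at a time gave a difference of -0.028 to 0.075. In the highest of 3 ranges of mean T>C reads, set so that each holds as many members, 4.33% of members rose and 5.19% fell, against 5.97% and 4.90% of shorter genes. Without replicate 2 of THZ531, 3 members rose and 5 fell.

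With SRPIN340, 2 members rose and 0 fell, where 0.845% of all genes rose and 0.191% fell. The edgeR count of members lower at an unadjusted p under 0.05 was 11 (1.60%, against 4.27% of shorter genes). DESeq2 called 1 member in either direction. With Endovion, 5 members rose and 3 fell, where 2.04% and 0.623% of all genes did. With the combination, 18 rose and 8 fell, where 4.62% and 3.49% of all genes did. The median log2 fold change of members exceeded that of shorter genes by 0.10 (SD 0.03) with SRPIN340, by 0.04 (SD 0.02) with Endovion and by 0.07 (SD 0.07) with the combination. Leaving out 1 library at a time gave 0.088 to 0.14, 0.025 to 0.12 and 0.02 to 0.11, in the same order. Of the members, 57.1% lay above 0 with SRPIN340, 51.8% with Endovion and 53.9% with the combination. The same 2 control libraries served for all 4 treatments.

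At the looser threshold of the study's methods, which asks for a change of 1 or more on the log2 scale with p under 0.05 before adjustment, 24 members rose and 6 fell with SRPIN340, where 3.34% and 1.32% of all genes did. With Endovion 28 rose and 14 fell, where 4.78% and 1.71% did. With THZ531 27 rose and 43 fell, where 5.65% and 6.33% did, and with the combination 38 rose and 14 fell, where 6.18% and 5.13% did.

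By annotated span, the class medians in nascent RNA covered a wider range with SRPIN340, Endovion and the combination than with THZ531. This difference was not tested. Genes of 10 kb or less had a median log2 fold change of -0.13 with Endovion, -0.17 with the combination and -0.09 with THZ531. The 108 tested members over 500 kb had medians of 0.24, 0.26 and 0.03, in the same order, and of these members GPC6 was called with THZ531 and the combination and none with Endovion. The 368 members of 200 to 300 kb had medians of 0.03, 0.03 and -0.01, and the 211 of 300 to 500 kb -0.01, 0.02 and -0.06. Between 10 and 200 kb the class medians with THZ531 lay between -0.00 and 0.04. With SRPIN340 the medians were -0.11 at 10 kb or less, 0.09 at 200 to 300 kb, 0.04 at 300 to 500 kb and 0.15 over 500 kb. No member over 500 kb was called with SRPIN340.

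**Figure D2:**
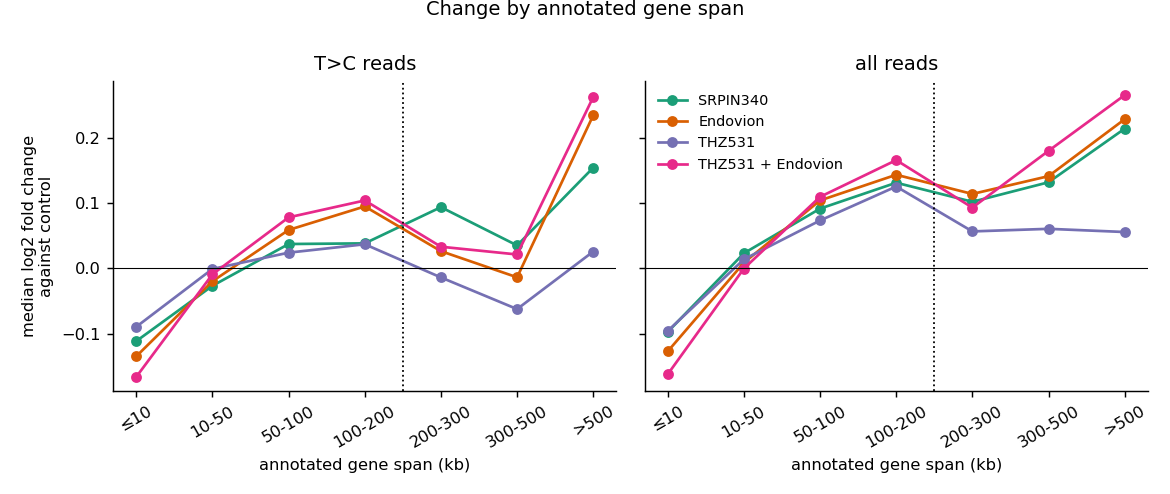
Median log2 fold change against control by class of annotated gene span (kb), for T>C reads (left) and all reads (right), with a line for each treatment. The dotted line marks 200 kb. For T>C reads, the members over 500 kb lie at 0.15 with SRPIN340, 0.24 with Endovion, 0.26 with the combination and 0.03 with THZ531. Genes of 10 kb or less lie below 0 with each of these.

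Total RNA gave the members more reads and more calls. With THZ531, 161 of 1054 members rose and 97 fell, where 16.6% of all 14688 genes rose and 14.1% fell. Among shorter genes 18.3% rose and 14.3% fell. With SRPIN340, 24 members rose and 0 fell, where 1.82% and 0.143% of all genes did. At an unadjusted p under 0.05 in edgeR 19 members were lower (1.80%, against 5.66% of shorter genes). That count of 24 became 0 without replicate 2 of SRPIN340 and 87 without replicate 1 of the control. With Endovion, 108 rose and 17 fell, where 8.91% and 2.54% did. The 108 became 10 without control replicate 2, and 17 and 26 without replicate 1 or 2 of Endovion. With the combination, 198 rose and 52 fell, where 16.6% and 12.4% did. DESeq2 called 64, 144, 264 and 247 members in either direction with SRPIN340, Endovion, THZ531 and the combination. The shares of all genes that DESeq2 called are not given here, so these counts do not set members apart. The members' median log2 fold change lay above that of shorter genes by 0.10 (SD 0.02), 0.13 (SD 0.02), 0.05 (SD 0.05) and 0.16 (SD 0.05), in that order.

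Members that rose in total RNA with the smallest p, named after their values were seen, include the glycosyltransferase gene GALNT2, by 1.10 with SRPIN340, 1.24 with Endovion, 1.503 with THZ531 and 1.61 with the combination (log2). The cyclin gene CCNG2 rose by 1.10, 1.70 and 1.68 with SRPIN340, Endovion and the combination. ANKRD11, a chromatin regulator, rose by 1.35 with THZ531 and by 1.49 with the combination. Transcription factor BACH1 rose by 1.88 and 1.69 with the same treatments. Of the members that fell, PTGFR, the receptor of prostaglandin F, changed by -1.98 with THZ531 and -1.82 with the combination, and the sodium channel gene SCN8A by -1.31 and -1.09.

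MNAT1, the assembly factor of the CDK-activating kinase (chr14:60734742-60969965), had by far the largest changes in nascent RNA. Levels are given as T>C reads scaled to a fixed library size with TMM factors (T>C RPM). It had 3.19 and 4.80 T>C RPM in control cells, 103 and 114 with SRPIN340, 102 and 135 with Endovion, 103 and 158 with THZ531, and 115 and 111 with the combination. Treated and control libraries did not overlap, and the treatments lay within each other's range. The log2 fold changes were 4.75, 4.88, 5.02 and 4.82, with edgeR adjusted p of 1.47e-14, 5.67e-15, 1.16e-15 and 1.09e-14. Total RNA of MNAT1 changed by 1.57 to 2.21 (log2) and was called with none of them (edgeR adjusted p = 0.282, 0.129, 0.0567 and 0.0756). The reads behind this were few in control cells, 5 of 185 and 6 of 54, and with THZ531 159 of 292 and 158 of 580 reads carried a conversion, where the median labelled share of tested members in control cells was 5.52%. Whether all of these T>C reads are newly made RNA was not tested, and the masking of differences from the reference is not given in the sources used here.

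Members that rose. CHCHD3, a subunit of the complex that holds mitochondrial cristae junctions (chr7:132784870-133082090), had 28.1 and 22.4 T>C RPM in control cells, 40.2 and 54.3 with SRPIN340, 78.7 and 69.7 with Endovion, 62.1 and 139 with THZ531, and 110 and 96.7 with the combination. All treated libraries lay above both control libraries, and those of THZ531 lay far apart from each other. It rose by 1.55 with Endovion, 1.96 with THZ531 and 2.03 with the combination (log2, edgeR adjusted p = 0.00145, 1.89e-05 and 6.85e-06). CCNY, which encodes cyclin Y (chr10:35247025-35572669), had 63.3 and 63.3 in control cells, 89.9 and 99.2 with SRPIN340, 115 and 107 with Endovion, 109 and 135 with THZ531, and 129 and 136 with the combination. Again no treated library overlapped the control. CCNY rose by 0.82, 0.95 and 1.08 with Endovion, THZ531 and the combination (edgeR adjusted p = 0.0465, 0.00638 and 0.00157), and its total RNA by 0.81, 0.94 and 0.97.

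MGST1, a microsomal glutathione transferase (chr12:16347142-16609259), had 66.4 and 47.2 T>C RPM in control cells, 54.3 and 90.5 with SRPIN340, 95.5 and 86.8 with Endovion, 107 and 112 with THZ531, and 153 and 118 with the combination. It was highest with the combination, where it rose by 1.26 (log2, edgeR adjusted p = 0.000662). Both subunits of the mitochondrial ribosome among the named members, MRPS22 and MRPL33, rose with THZ531, by 0.99 and 1.29 (edgeR adjusted p = 0.00235 and 0.00202). MRPL33 had 96.5 and 36.8 T>C RPM in the 2 control libraries, a wide spread, and 133 and 200 with THZ531. MRPS22 also rose with SRPIN340, by 0.86 (edgeR adjusted p = 0.0372), and was among the 14 tested members with a labelled share over 20% in control cells, at 29.9%.

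Members that fell. HIPK2, a nuclear serine/threonine kinase (chr7:139561570-139777998), had 265 and 251 T>C RPM in control cells, 278 and 274 with SRPIN340, 284 and 209 with Endovion, 125 and 112 with THZ531, and 184 and 185 with the combination. The THZ531 libraries lay far below all others, with the combination between them and the control. HIPK2 fell by 1.11 on the log2 scale with THZ531 (SE 0.19, edgeR adjusted p = 3.83e-05), and its total RNA fell by 0.67. PBX3, a homeodomain transcription factor (chr9:125747345-125967377), had 49.8 and 60.9 in control cells, 60.4 and 58.6 with SRPIN340, 54.3 and 58.2 with Endovion, 16.2 and 22.1 with THZ531, and 44.6 and 37.7 with the combination. Only the THZ531 and the combination libraries lay below both controls, and the fall of 1.54 with THZ531 was called (edgeR adjusted p = 0.00218) while the change of -0.41 with the combination was not (0.506).

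PLEKHA5, a protein with a pleckstrin homology domain (chr12:19129669-19376400), had 208 and 216 T>C RPM in control cells, 246 and 179 with SRPIN340, 123 and 188 with Endovion, 111 and 80.2 with THZ531, and 94.3 and 116 with the combination. It fell by 1.13 with THZ531 and changed by -1.005 with the combination (log2, edgeR adjusted p = 0.000291 and 0.00124). TNRC6B, a scaffold of microRNA silencing (chr22:40044817-40335808), had 179 and 230 in control cells, 186 and 191 with SRPIN340, 246 and 265 with Endovion, 125 and 119 with THZ531, and 181 and 162 with the combination. It fell with THZ531 by 0.73 (edgeR adjusted p = 0.0101) and was above both controls with Endovion, where the change of 0.33 was not called. The ubiquitin ligase gene NEDD4L fell with Endovion by 0.82, with THZ531 by 0.74 and with the combination by 0.80 (edgeR adjusted p = 0.0165, 0.0198 and 0.0101). ARHGEF3, an exchange factor of small GTPases, went from 49.2 and 45.6 in control cells to 9.17 and 22.9 with Endovion, a fall of 1.59 (edgeR adjusted p = 0.0226), and the log2 change was -1.04 without replicate 1 of Endovion and -2.36 without replicate 2. MYCBP2, a ubiquitin ligase, and CRYBG1 fell with the combination by 0.84 and 0.90, and the actin-binding ABLIM1 by 0.76 (edgeR adjusted p = 0.00774, 0.0054 and 0.000592). Like MRPS22, ABLIM1 was among the 14 tested members with a labelled share over 20% in control cells, at 21.6%. Its total RNA changed by -0.19 with the combination and was not called (edgeR adjusted p = 0.251).

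**Figure D3:**
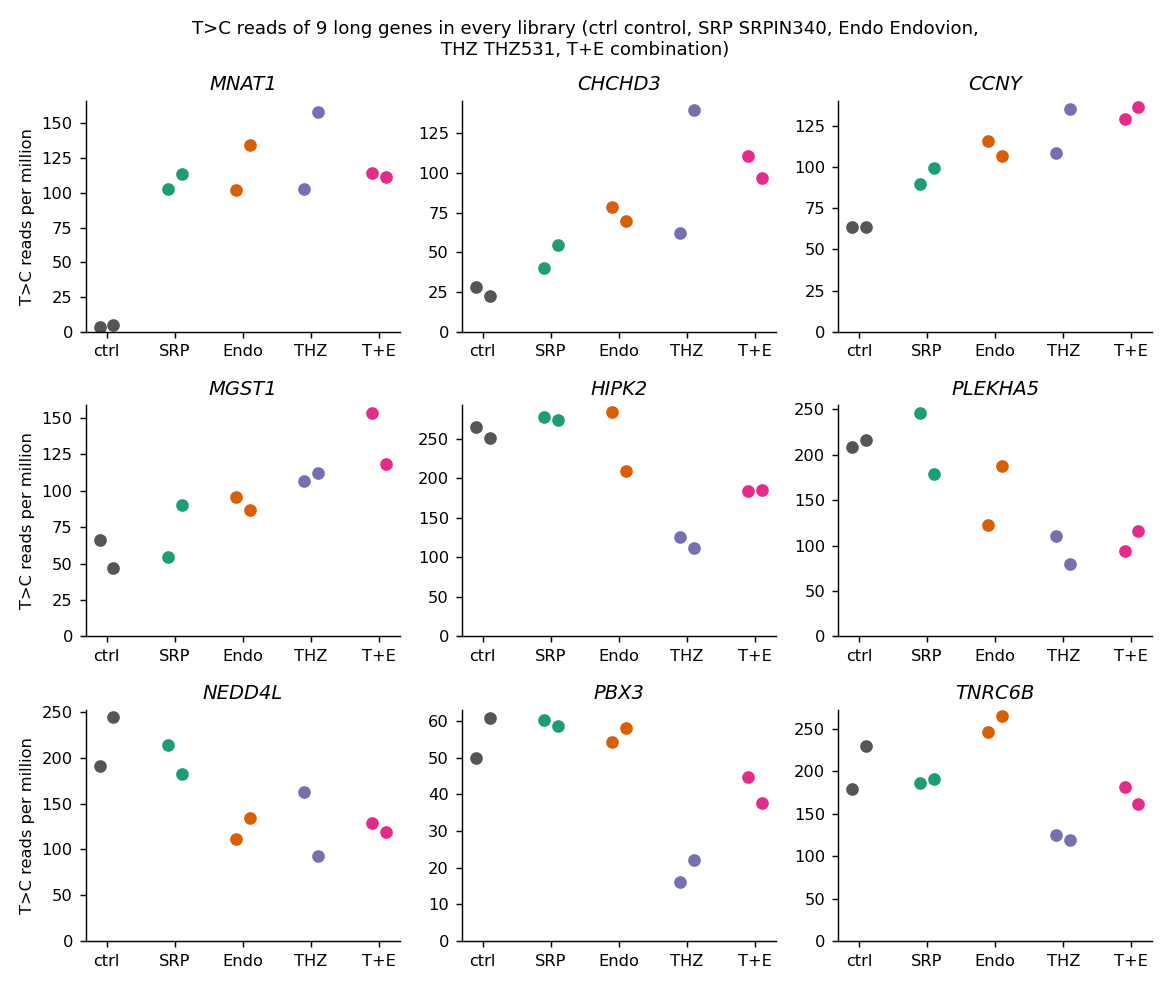
T>C RPM in each of the 10 libraries for 9 members, with a panel for each gene and the axis from 0. MNAT1, CHCHD3, CCNY and MGST1 are higher with THZ531 than in control cells, and HIPK2, PLEKHA5, NEDD4L, PBX3 and TNRC6B are lower, with HIPK2 at 125 and 112 against 265 and 251.

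The widest members were read thinly. CSMD1 spans 2059.62 kb and had 10.2 and 12.8 T>C RPM in control cells and 1.94 and 1.003 with THZ531, a change of -2.81 that missed the threshold in edgeR (adjusted p = 0.0603), while its total RNA fell by 0.98. MAGI2, a scaffold of cell junctions of 1436.613 kb, had 23.0 and 26.4 in control cells and 5.82 and 9.02 with THZ531 (log2 fold change -1.75, edgeR adjusted p = 0.0922). Its total RNA fell by 1.78 with THZ531 and by 1.34 with the combination (edgeR adjusted p = 0.000108 and 0.000868). PDE4D, a cyclic AMP phosphodiesterase of 1553.083 kb, changed by -1.04 with THZ531 and -0.57 with the combination in nascent RNA, neither of them called. NRXN3 and FHIT had at most 10.1 T>C RPM in any library. GPC6, a glypican of 1181.214 kb, rose from 14.7 and 3.20 in control cells to 33.6 and 24.1 with THZ531 (log2 fold change 1.64, edgeR adjusted p = 0.0388).

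None of the 5 members with most T>C reads in control cells was called with THZ531 in nascent RNA. PPP3CA, the catalytic subunit of calcineurin, had 1602 and 1651 T>C RPM in control cells and 1783 and 1845 with THZ531 (log2 fold change 0.17, edgeR adjusted p = 0.547). MBNL1, a splicing regulator, changed by 0.29, PGK1 by -0.07 and ATP1B1, a subunit of the sodium pump, by 0.33 with THZ531, and none was called. The change of ABLIM1 was -0.36. At the limit itself, the members just inside, FREM2 at 200.055 kb and LRRC49 at 200.42 kb, changed by -0.70 and -0.70 with THZ531, and the genes just outside, LRCH1 at 199.873 kb and ERBIN at 199.419 kb, by -0.38 and 0.14, all 4 without a call.

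Members were also grouped by what their proteins do, with 9 lists chosen with earlier results of these data known. With THZ531, 3.86% of all genes rose and 3.6% fell in nascent RNA, with a median log2 fold change of -0.02, and 16.6% rose and 14.1% fell in total RNA. The lists are small, and their counts are to be read against these shares. Of 48 tested transcription factors and chromatin regulators, 0 rose and 2 fell with THZ531 in nascent RNA, PBX3 among them, with a median log2 fold change of -0.06, and in total RNA 12 of 53 rose and 7 fell. None of 20 cytoskeleton linkers was called in nascent RNA (median 0.15), and in total RNA 3 of 31 rose and 4 fell. Of 17 adhesion and polarity genes GPC6 rose and SLIT2 fell (median 0.20), and in total RNA 2 of 25 rose and 2 fell. SLIT2, a secreted guidance cue, had 11.5 and 16.01 T>C RPM in control cells and 1.29 and 0 with THZ531, so that its called fall rests on few reads. Of 18 kinases, phosphodiesterases and receptors 0 rose and 2 fell, HIPK2 and the diacylglycerol kinase DGKH, and in total RNA 2 of 27 rose and 4 fell.

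In the smaller lists, TNRC6B was the 1 member of 9 RNA-binding proteins called with THZ531 in nascent RNA and NEDD4L the 1 of 21 genes of membrane traffic, autophagy and ubiquitin. None of 9 genes of DNA repair, replication and mitosis and none of 9 transporters and channels was called, with medians of 0.72 and 0.02. Of the 9 repair genes 5 lay above 0, and in total RNA with THZ531 their list had a median of -0.007. TTC28 and PRIM2, the repair genes with the smallest THZ531 p, had at most 1.92 T>C RPM in control cells. Of 12 genes at common fragile sites, which are known to break under replication stress and are mostly very wide, GPC6 rose and none fell (median 0.22). In total RNA with THZ531, where 16.6% of all genes rose and 14.1% fell, 2 of 10 RNA-binding genes rose and 1 fell, 1 of 23 traffic genes rose and 3 fell, 2 of 12 repair genes rose and 1 fell, 2 of 18 fragile site genes rose and 1 fell, and 0 of 12 transporters rose and 1 fell. With the combination, where 16.6% of all genes rose and 12.4% fell in total RNA, 13 of the 53 transcription factors and chromatin regulators rose and 3 fell, 7 of the 25 adhesion genes rose and 1 fell, 6 of the 31 cytoskeleton linkers rose and 1 fell, and 2 of the 27 kinases, phosphodiesterases and receptors rose and 4 fell.

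A sum over a gene hides which of its ends was used, so the ends were then set against each other, an analysis added after the gene sums had been seen. For each gene with several covered ends, those with a mean of at least 10 reads per library, the end nearest to the gene's start (first) was compared with the end farthest from it (last), in all reads, with the library as a block. Across the 1612 genes with such a pair, edgeR tested whether the ratio of last to first changed. The 133 members whose ends lay over 50 kb apart are described here. In 114 of them the first end lay in an intron of the transcript of the last end, in 13 it overlapped an exon and in 6 it lay outside.

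With THZ531 the last end lost ground to the first in long genes about as often as in all genes with such a pair. The ratio of last to first fell in 52 of 133 members (39.1%) and rose in 2, where it fell in 35.4% and rose in 2.48% of all 1612 genes. The median log2 change was -0.91, with quartiles of -1.87 and -0.16, and 107 of 133 members lay below 0. In 181 shorter genes with ends over 50 kb apart the median was -1.41, with 94 that fell (51.9%) and 2 that rose, and the difference between long and shorter genes was not tested. Without replicate 2 of THZ531 it fell in 26 members. The minimum of 10 reads was a mean over all libraries, so an end could pass through the libraries in which it was high. When both ends had to reach it over the 6 libraries without THZ531, a choice made after seeing the data, 118 members were left, of which the ratio fell in 42 and rose in 2 (median -0.72), where it fell in 33.0% of the 1496 genes left. With the combination the ratio fell in 18 members and rose in 4 (median -0.46), where it fell in 21.5% and rose in 3.47% of all genes, and in the 181 shorter genes it fell in 55 and rose in 3.

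With SRPIN340 the ratio fell in 0 members and rose in 0 (median 0.27), where 0% fell and 0% rose. At an unadjusted p under 0.05 in edgeR were 11 members and 215 of all 1612 genes. With Endovion the ratio fell in 0 members and rose in 3 (median 0.36), where 1.3% fell and 2.11% rose. The medians of the 181 shorter genes with ends over 50 kb apart were 0.23 with SRPIN340 and 0.35 with Endovion. The combination against THZ531 alone gave a median of 0.63, with 108 of 133 members above 0. Of the members 0 were called, where 0% of all pairs were called. Those 181 shorter genes gave a median of 0.58 with 147 above 0, and 1115 of all 1612 pairs lay above 0. At an unadjusted p under 0.05 in edgeR were 34 members, 45 of those shorter genes and 250 of all pairs. DESeq2 was not run on these ratios.

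**Figure D4:**
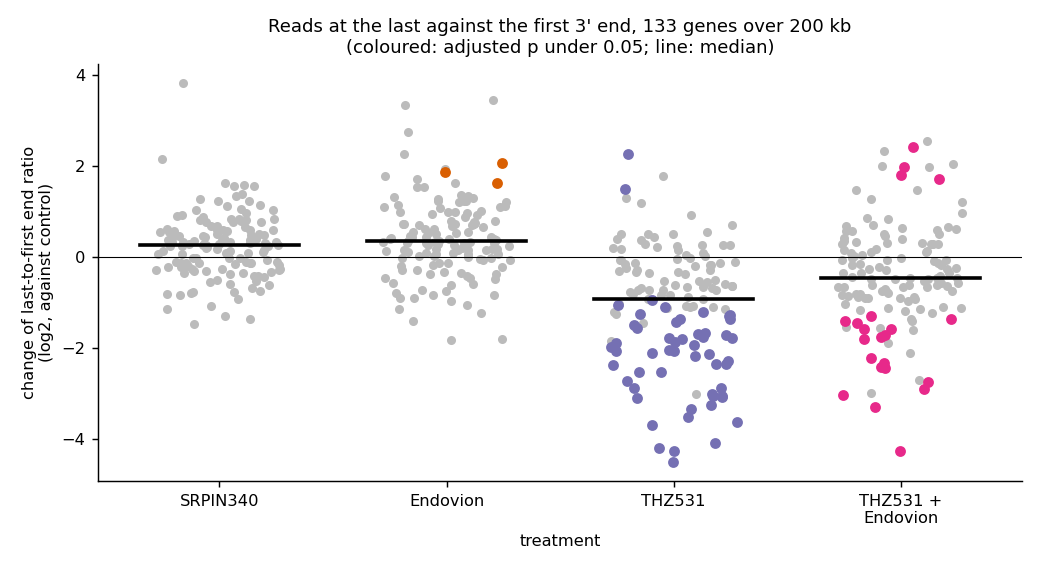
Log2 change of the ratio of reads at the last to reads at the first 3′ end against control, in 133 members with ends over 50 kb apart, by treatment. Each point is a gene, coloured where edgeR gave an adjusted p under 0.05, and the line is the median. With THZ531 the median is -0.91 and 52 members fell, with the combination it is -0.46 and 18 fell, and with SRPIN340 and Endovion the medians lie above 0.

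The share of reads at the first end was also taken in each library. Summed over the 133 pairs, the first end held 12.3% and 12.7% of the pair's reads in control cells, 11.4% and 10.6% with SRPIN340, 10.4% and 10.1% with Endovion, 17.7% and 18.7% with THZ531, and 13.9% and 14.7% with the combination. In these sums the groups did not overlap, with THZ531 highest, the combination next and Endovion lowest. No such sums were taken over all 1612 pairs or in the 181 shorter genes with ends over 50 kb apart. With THZ531 the ratio changed by a median of -1.41 in those shorter genes, against -0.91 in members. First ends of the 133 members could enter through the libraries with THZ531, and the sums were not repeated with a minimum that leaves these out. The median share over the pairs was 10.3% and 9.80% in control cells, 8.92% and 8.74% with SRPIN340, 9.25% and 8.56% with Endovion, 16.1% and 18.5% with THZ531, and 12.95% and 14.3% with the combination, so that SRPIN340 lay within the Endovion range. Tested alone, the first end of these 133 members rose in 46 and fell in 2 with THZ531 (median log2 fold change 0.72), where 32.4% of all first ends rose and 4.96% fell. The last end rose in 14 and fell in 21 (median -0.09), where 13% rose and 23.9% fell. With the combination the first end rose in 33 and fell in 4 (median 0.38), where 25.4% rose and 5.33% fell, and the last end rose in 28 and fell in 7 (median 0.06), where 15.5% rose and 16.4% fell.

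The ratio was also followed by the place of the first end. It fell with THZ531 in 18 of 36 members whose first end lay within 50 kb of the gene's start (median -1.08), in 23 of 61 with it at 50 to 200 kb (median -1.08), and in 11 of 36 with it beyond 200 kb (median -0.44), where it fell in 35.4% of all genes. Over all covered member intervals, 25 of 61 within 50 kb of the start rose in total RNA with THZ531 and 1 fell (median 0.72), and 45 of 191 at 50 to 200 kb rose and 7 fell (median 0.52), where 15.4% of all 17456 intervals tested rose and 14.6% fell. The difference between these classes was not tested.

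The hexamers were less frequent at the first ends than at the last. AATAAA lay within the last 50 bases on the transcript strand of 75 of the 133 first ends (56.4%) and of 96 last ends (72.2%), and AATAAA or ATTAAA in 90 (67.7%) and 120 (90.2%). Over all 1612 pairs either hexamer lay there in 51.2% of first and 77.2% of last ends. Among the 52 members whose ratio fell with THZ531, 45 first ends (86.5%) held either hexamer, against 44 of the 79 without a call (55.7%). No such split was made over all 1612 pairs or in shorter genes, so these shares do not set members apart. Stretches of A, on which a library can also be primed inside a transcript, were few: at least 12 A in the next 20 bases followed 8 of the 133 first ends (6.02%), 2 last ends (1.504%) and 1 of the 52 first ends of members that fell.

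Single genes show the size of the shift. They were chosen after their values were seen, for a small p or the opposite direction, and reads are given as counted, unscaled. ARMH3 (210.595 kb) has ends 26.746 kb and 210.595 kb from its start. The first had 21 and 16 reads in control cells, 23 and 39 with SRPIN340, 37 and 18 with Endovion, 218 and 284 with THZ531, and 140 and 159 with the combination. The last had 217 and 210 in control cells, 191 and 209 with SRPIN340, 208 and 147 with Endovion, 188 and 154 with THZ531, and 182 and 170 with the combination. The first end was far higher in all 4 libraries with THZ531, alone or combined, than in the other 6, and the last end moved little. The log2 ratio changed by -4.07 with THZ531 and -3.29 with the combination (edgeR adjusted p = 5.39e-05 and 0.000511).

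GPATCH2, which encodes a protein with a G-patch domain, is covered at 22.907 kb and 204.099 kb, the ends whose sequences are given above. Its first end had 267 and 131 reads in control cells, 246 and 348 with SRPIN340, 242 and 158 with Endovion, 554 and 667 with THZ531, and 501 and 475 with the combination. Its last end had 884 and 818 in control cells, 938 and 1038 with SRPIN340, 803 and 770 with Endovion, 398 and 263 with THZ531, and 515 and 435 with the combination. Here the first end was higher and the last lower, so that the larger end in control cells became the smaller with THZ531. The changes of the log2 ratio were -3.08 (SE 0.41) and -2.22 with THZ531 and the combination (edgeR adjusted p = 0.000189 and 0.00261).

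BICD1, an adaptor of the dynein motor, has its first end only 1.962 kb from the start and its last at 276.799 kb. The first had 117 and 80 reads in control cells, 76 and 110 with SRPIN340, 69 and 41 with Endovion, 275 and 228 with THZ531, and 135 and 153 with the combination. The last had 409 and 341 in control cells, 444 and 465 with SRPIN340, 600 and 438 with Endovion, 157 and 84 with THZ531, and 299 and 169 with the combination. Both ends with the combination lay between those of control and THZ531. The log2 ratio changed by -3.06 with THZ531 and by -1.29 with the combination (edgeR adjusted p = 0.00025 and 0.0428).

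SLC10A7, of the solute carrier family 10, and the transcription factor gene NFIB had first ends that were minor in control cells. The first end of SLC10A7, 8.471 kb from the start, had 9 and 10 reads in control cells, 9 and 14 with SRPIN340, 3 and 3 with Endovion, 128 and 100 with THZ531, and 35 and 30 with the combination. Its last end, at 268.398 kb, had 158 and 133 in control cells and 203 and 220 with THZ531. The first end had at most 14 reads in any library without THZ531, so it reached the minimum through the libraries with THZ531. The ratio changed by -3.02 with THZ531, but a pair that entered in this way is no independent sign of a shift. In NFIB the first end, at 93.231 kb, had 53 and 30 reads in control cells and 241 and 221 with THZ531, against 12668 and 10307 and then 14454 and 11161 at the last end. The early end thus stayed a small part of NFIB reads, from 0.417% and 0.29% in control cells to 1.64% and 1.94% with THZ531, although the ratio changed by -2.36 (edgeR adjusted p = 0.000551).

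ASCC3, a helicase subunit (373.179 kb), had 566 and 692 reads at an end 25.07 kb from the start in control cells, 479 and 647 with SRPIN340, 485 and 317 with Endovion, 1591 and 1673 with THZ531, and 877 and 751 with the combination. At this gene the first end was already the larger in both control libraries, with 53.3% and 59.5% of the pair, and reached 79.2% and 84.1% with THZ531 (log2 change of the ratio -1.79, edgeR adjusted p = 0.00114). The ratio also fell with THZ531 in AHI1, a gene of the ciliary transition zone, by 3.503, in SMARCA2, an ATPase of the SWI/SNF chromatin remodeller, by 2.04, in the polarity gene PARD3 by 2.28, in the kinase gene BRAF by 2.17 and in NEDD4L by 1.70.

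ZNF609, a zinc finger gene, went the other way. Its first end, at 42.481 kb, had 178 and 117 reads in control cells, 98 and 93 with SRPIN340, 74 and 56 with Endovion, 64 and 29 with THZ531, and 32 and 57 with the combination. Its last end, at 225.491 kb, had 131 and 78 in control cells, 159 and 251 with SRPIN340, 233 and 151 with Endovion, 172 and 128 with THZ531, and 182 and 145 with the combination. The first end was lower in every treated library than in both controls. The ratio rose by 2.05 with Endovion, 2.27 with THZ531 and 2.41 with the combination (edgeR adjusted p = 0.0461, 0.0043 and 0.00572). The other member that rose with THZ531 was IMMP2L, by 1.495. With Endovion the other 2 were LPP and MSI2, and with the combination LPP and SLC2A13 were among the other 3.

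**Figure D5:**
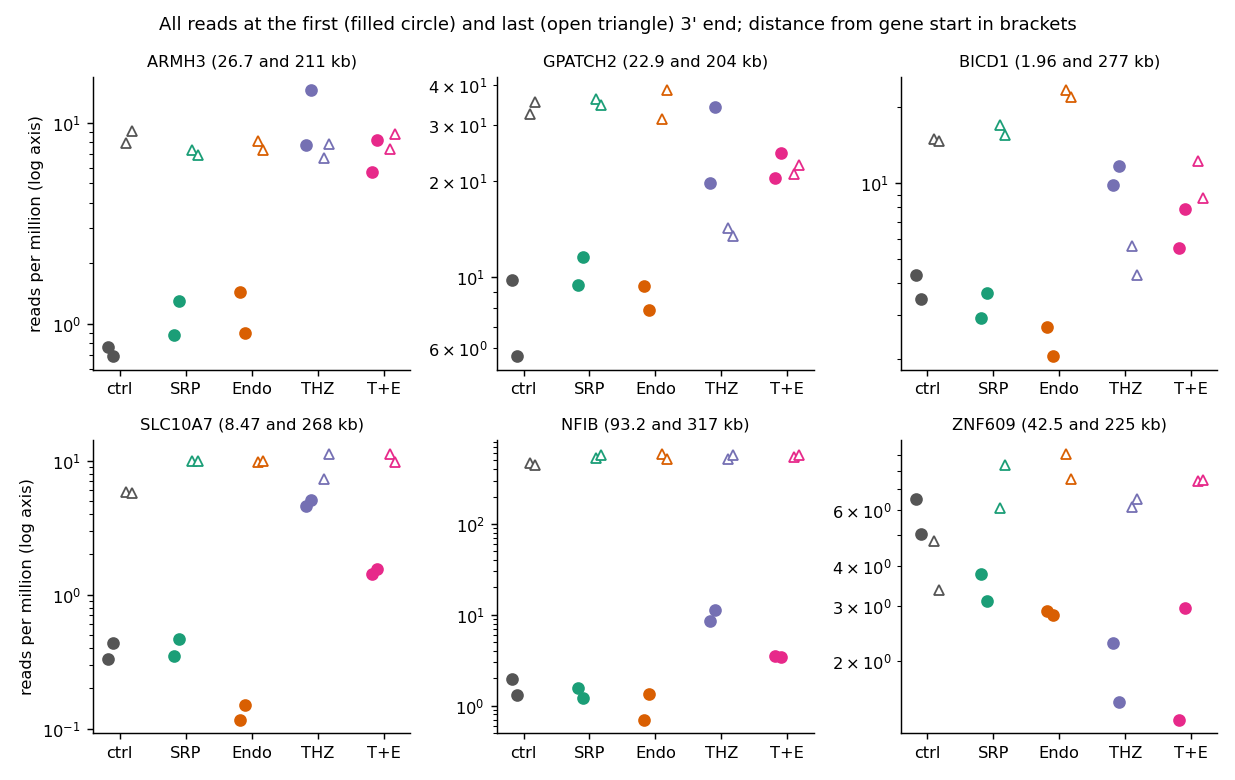
All reads in RPM (log axis) at the first (filled circles) and the last (open triangles) covered 3′ end of 6 members in each of the 10 libraries, with the distances from the gene start in brackets. In ARMH3 the first end reached 7.79 and 14.5 RPM with THZ531 against 0.771 and 0.691 in control cells, and in ZNF609 the first end was lower with every treatment.

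In T>C reads the same ratio could be fitted for 109 of these members. The median change with THZ531 was -1.38 and 77 of 109 lay below 0. Of these members 0 were called, where 0.636% of 1416 genes were, and 16 had an unadjusted p under 0.05 in edgeR. In 160 shorter genes with ends over 50 kb apart the median was -1.31, with 111 below 0 and 31 at such a p. The nascent ratios were called in 0.353% of genes with the combination and in 0% for the combination against THZ531, with 0 members in both. At this depth, whether newly made RNA alone shifted could not be decided gene by gene.

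Endovion added to THZ531 was compared directly in gene sums too. In nascent RNA 0 of 687 members differed between the combination and THZ531, where 0.322% of all genes did, and DESeq2 called 0. At an unadjusted p under 0.05 in edgeR were 49 members (7.13%), against 7.81% of shorter genes. In total RNA 3 of 1054 members were higher with the combination, CCNG2, CSRNP3 and NLGN4Y, and 0 lower, where 0.511% of all genes differed. The interaction of the drugs, the part of the combination's change that the sum of the single changes does not give, was called in nascent RNA for MNAT1 alone among members, where 0.302% of all genes were called. In total RNA it was called for 0 members, where 0.00681% of all genes were called. At an unadjusted p under 0.05 in edgeR were 119 members (11.3%), against 13.9% of shorter genes. DESeq2 called the interaction for 9 members, and its share over all genes is not given here.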

How the data were processed

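Alkylated RNA of 22RV1 cells was sequenced by the authors as QuantSeq 3′ end libraries, single-end, and counted per 3′ UTR interval with SLAM-DUNK. The deposited counts used here, all reads and T>C reads per interval, carry no normalization by the authors. The deposited T content per interval (another unit) served to check the build: it equalled that of hg38 in 5000 of 5000 intervals, with no tolerance. Submitters' processing notes name Bowtie2 2.3.4.1, SAMtools 1.6, DESeq2 1.38.2 and hg38. SLAM-DUNK settings, strand use in counting, and whether molecular identifiers were collapsed are not given in the sources used here.

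Of 104653 intervals of 75026 transcripts, 96427 lay on main chromosomes and 92910 matched GENCODE v44, and unmatched ones held 3.53% of T>C reads. The best-covered of overlapping intervals was kept and summed per gene, since a plain sum counted 48.8% of T>C reads again. The kept intervals of 1578 genes overlap another gene's, 17 tested members among them. Groups follow the sample labels. edgeR 4.0.16 (limma 3.58.1, R 4.3.3) used filterByExpr, TMM factors and the robust quasi-likelihood fit over 10 libraries, with 5 residual degrees of freedom, and Benjamini-Hochberg adjustment over all genes. T>C RPM values are scaled by the TMM factors. The RPM of all reads given for markers and for single ends are scaled by the reads on genes alone. The labelled share was tested as T>C against other reads with the library as a block. SDs of median differences come from library medians of log2(CPM + 0.5), with 2 libraries per group. Leaving out a library moved some of these differences by more than the SD. With 2 libraries against 2, an exact permutation test of a single value cannot give a p under 0.333, so none was run. The procedure was tested on simulated counts. Figures were drawn in Python 3.11.15 with matplotlib 3.10.9.

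Alternatives were DESeq2 1.42.0, other filters, sums, scalings, span limits and call rules, the replicate number as a block, and leaving out each library. Same-numbered libraries did not deviate together (r -0.07 to 0.06), so numbers do not pair them. The members, 9 gene lists, tests and alternatives were chosen with earlier results of these data known. Named by rule were, per treatment, the 4 called members with the smallest p in each direction whose treated libraries both lay outside the control range and whose higher group had 20 or more T>C reads per library, the 5 widest, the 5 with most control T>C reads, the 2 with the smallest p for the combination against THZ531 and the interaction, the 2 per list with the smallest THZ531 p, and the 2 nearest the limit on each side. Other genes were named after their values were seen. Results of some genes that meet the rule are not reported here. The files' conversion rate and CPM columns were not used.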

Additional observations from a re-analysis of the deposited data

Results flagged for a closer look

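The interaction of THZ531 and Endovion on nascent MNAT1 was singled out because the effect of one drug differed with the other, tested as an interaction term. It was -5.07 on the log2 scale (SE 0.46, edgeR quasi-likelihood test with Benjamini-Hochberg adjustment, adjusted p = 7.28e-12): each drug alone gave a change of 4.88 to 5.02 and both together 4.82, all against the same control libraries with 5 and 6 T>C reads. Whether all T>C reads of MNAT1 in treated cells are newly made RNA was not tested.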

How the results depend on the processing

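Counts below are of members, called in nascent RNA unless total RNA is named. DESeq2 gave, in nascent RNA, 1 that rose with SRPIN340, 2 that rose and 0 that fell with Endovion and 7 that rose with THZ531, and in total RNA with SRPIN340 60 that rose and 4 that fell. Without the low count filter the nascent medians of members minus shorter genes were 0.050 with SRPIN340 and 0.00 with Endovion. With the plain sum 1 rose with SRPIN340, 2 rose and 0 fell with Endovion, 5 rose and 9 fell with THZ531 and 7 rose and 3 fell with the combination, and the THZ531 median turned to 0.021. Each interval tested alone gave a median of 0.017 with Endovion and 15 that fell with the combination. Scaled by all reads, 1 rose with SRPIN340, 2 rose with Endovion and 14 fell with the combination. With the replicate block, 7 rose in total RNA with SRPIN340, and no paired fit moved another count of members by over 1.5 times.

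A limit of 100 kb gave 9 that rose with SRPIN340, 27 that rose with Endovion (median 0.10), 55 and 53 that rose and fell with THZ531 (median turned to 0.041), and 70 and 24 with the combination. A limit of 300 kb gave 1 that rose with SRPIN340, 1 with Endovion, 5 and 3 that rose and fell with THZ531 and 5 and 2 with the combination, and in the last-to-first ratio 25 that fell and 1 that rose with THZ531 and 9 that fell with the combination. Where the transcript of the best-covered end itself spans over 200 kb, 3 rose with Endovion, 8 with THZ531 and 10 with the combination. At the threshold of the study's methods 24 rose and 6 fell with SRPIN340, 28 and 14 with Endovion, 27 and 43 with THZ531 and 38 and 14 with the combination. Compared within ranges of counts, the THZ531 median turned to 0.018. Without genes of over 20% T>C reads in control cells 1 rose with SRPIN340. The ratio in T>C reads was called in 0 members in each direction with THZ531 and with the combination. Pairs at any distance gave 28 that fell and 8 that rose with the combination. With a hexamer at both ends 1 rose with THZ531 and 2 with the combination, and with no A-rich first end 1 rose with THZ531.

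Leaving out 1 library at a time moved most counts. In nascent RNA, 1 to 7 rose and 0 to 0 fell with SRPIN340 (median 0.088 to 0.14), 1 to 13 and 1 to 5 with Endovion (0.025 to 0.12), 3 to 14 and 5 to 18 with THZ531 (-0.028 to 0.075), and 6 to 21 and 2 to 12 with the combination (0.02 to 0.11). In total RNA, 0 to 87 rose and 0 to 2 fell with SRPIN340 (0.10 to 0.13), 10 to 130 and 1 to 24 with Endovion (0.11 to 0.16), 47 to 165 and 56 to 110 with THZ531 (0.03 to 0.08), and 77 to 190 and 28 to 70 with the combination (0.11 to 0.18). The ratio fell in 26 to 52 and rose in 1 to 2 members with THZ531, and fell in 7 to 18 and rose in 2 to 5 with the combination. Without replicate 2 of THZ531 the THZ531 counts were the lowest (3 and 5 in nascent RNA, 26 for the ratio), those that rose in total RNA with Endovion and the combination were lowest without control replicate 2, and without control replicate 1 the counts that rose were the highest with every treatment in both kinds of RNA. Without replicate 1 of the combination its nascent counts (6 and 2) and its falls of the ratio (7) were the lowest. The causes were not tested. The other 352 values kept their direction and side of the threshold. Of the named members' calls, none reversed, and 20 of 25 remained called with DESeq2, 14 with the plain sum, 22 when scaled by all reads and 24 with the replicate block. Leaving out a library took away 33 of 250 such calls and left 217, with 9 lost without control replicate 2 and losses for ARHGEF3, CCNY, CHCHD3 and NEDD4L with Endovion, MRPS22 with SRPIN340 and THZ531, MRPL33 with Endovion and THZ531, PBX3 with THZ531, and CRYBG1, MYCBP2 and PLEKHA5 with the combination among them. Depth limits nascent RNA most: members had a median of 24.5 T>C reads in control cells.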
